A study of Mus musculus with 15 samples.

Results

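Intrahepatic cholangiocarcinoma (ICC), a liver cancer with features of bile duct epithelium, was compared with hepatocellular carcinoma (HCC), the liver cancer with features of hepatocytes, in mice of the same genotype. The comparison used 10 of the 15 arrays of the series, namely the 5 tumors labelled ICC_p53LKO and the 5 labelled HCC_p53LKO. They were chosen by these labels, and the numbers in the labels show that 4 mice, 3731, 3733, 3976 and 5283, gave both a HCC and an ICC. The fifth HCC came from mouse 3975 and the fifth ICC from mouse 3977. Both groups were p53LKO, a liver-specific deletion of Trp53, the gene of the tumor suppressor p53, and both were treated for 16 weeks with intraperitoneal carbon tetrachloride (CCl4, 0.5 µl per g body weight, diluted in olive oil), a hepatotoxin that causes chronic liver damage. The remaining 5 arrays held HCC of p53f/f mice, which carry the floxed Trp53 gene and had the same treatment. The Cre line that deletes Trp53 is not given in the sources used here. The study names male mice for the HCC arrays, so the 4 mice with both tumors were male, and the sex of mouse 3977 is not given. Mice were killed at more than 1 age, and the age of each of these mice is not given. The RNA was extracted from whole tumor tissue, so that stroma, blood and immune cells contributed to it, and in such samples fewer cells of a type and less RNA per cell cannot be told apart.

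Hepatocytes make most plasma proteins, run gluconeogenesis, the urea cycle and bile acid synthesis, and take up, store and export iron. Cholangiocytes line the bile ducts and carry keratin 19, EpCAM and osteopontin, the product of Spp1. Cholangiocarcinomas are known for a dense fibrous stroma, and hepatocellular carcinomas often express fetal liver genes such as Afp.

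Levels are given as the log2 of the array signal relative to the 75th percentile of its array, so that 0 is the signal of that percentile and a step of 1 is a doubling. Differences are ICC minus HCC on this scale, ± the standard error of the fit (n = 5 and 5 unless stated). A gene was called when limma's moderated test gave a Benjamini-Hochberg adjusted p under 0.05 and the fold change was over 2. The arrays lay on 2 slides with an upper and a lower row. All 5 ICC and the HCC of mice 3976 and 5283 lay in a lower row, where 37.0% to 47.0% of the probes were well above background, and the other 3 HCC lay in an upper row, where 61.0% to 62.1% were. Row and tumor type were thus partly confounded, and the lower-row HCC and 4 of the ICC lay on different slides, so the values without these 2 HCC and within the lower row are given for the leading genes below. The HCC of mouse 3731 stood apart by its stroma. The mean level of the stellate cell and fibroblast markers was 3.13 in it, against 1.55 to 1.98 in the other HCC. The ICC of mouse 3733 stood apart by its hepatocyte markers, at a mean level of 4.50 against 5.62 to 6.78 in the other ICC.

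ICC and HCC differed widely. Of 32644 probes tested, 4221 (12.9%) were called higher and 4387 (13.4%) lower in ICC, 26.4% in all. With 1 probe for each of 16162 genes 1999 genes (12.4%) were higher and 2501 (15.5%) lower, 27.8% in all. The rises were the larger, with 218 genes over 16-fold higher against 47 over 16-fold lower. At 9333 probes (28.6%) the 5 ICC did not overlap the 5 HCC. The median gene was 0.19 lower in ICC on the log2 scale, and the split depended on the scale. Lower probes made up 51.0% of the calls here, 26.6% when the arrays were scaled on the probes above background on all of them, which set the median gene at 0.18, and 72.6% when they were scaled on their medians, which set it at -0.54. With slide and row as blocks, which leaves the 2 HCC and 1 ICC of slide 1 to carry the contrast, 462 probes were called, on slide 1 alone 1176, and with mouse and row as blocks 296, with no call in the opposite direction in any of them. Correlations between arrays were 0.964 to 0.978 among HCC, 0.936 to 0.980 among ICC and 0.848 to 0.923 between them. Trp53 was low in both tumor types, at -4.19 to -2.31 against -3.86 to -2.75, while the HCC of p53f/f mice held -1.27 to -0.68. The difference between ICC and HCC was 0.02 ± 0.34 (adjusted p = 0.969 from limma), and the probe was well above background on 4 HCC and 2 ICC arrays.

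The largest rises in ICC included those of Reg3b, Reg3g and Gp2, which code for secreted and surface proteins of mucosal and glandular epithelium and were at or near background in HCC. Reg3b, which codes for a secreted antimicrobial lectin of the gut, was at 6.74 in mouse 3731, 8.35 in mouse 3733, 4.92 in mouse 3976, 7.25 in mouse 3977 and 7.67 in mouse 5283 among the ICC. In the HCC it was not well above background on any array, with values of -7.13 to -4.19, so ICC was at least 2500-fold higher. Its probe passed the filter through the ICC alone, so limma's adjusted p of 2.58e-06 is no separate support. Reg3g, its close relative, was at 6.09 to 8.20 in ICC and -5.16 to -3.78 in HCC, where 2 arrays were well above background, a difference of 11.76 ± 0.45. Reg1, a further member expressed in the exocrine pancreas, was called higher and was well above background on 5 ICC and 1 HCC. Reg3d, at a mean of -2.59 in HCC and -2.55 in ICC, did not pass the test. Of 7 Reg genes on the array 4 were tested and 3 were called, and Reg2 and Reg4 were not well above background on any of the 10 arrays.

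Reg3b and Reg3g lie in a cluster of Reg genes, with start sites 98.0 kb apart in GRCm38.p6, and both Reg3d, which was not called, and Reg1, which was, lie between them, 8.0 and 55.1 kb from Reg3b. These neighbours were looked up after the values were seen. The 250 bases before the start sites of both genes, taken from RefSeq, are shown because both genes were higher in ICC by over 11 on the log2 scale. Capitals mark bases that lie in a run of at least 10 bases found in both, and such runs can overlap.
Reg3b: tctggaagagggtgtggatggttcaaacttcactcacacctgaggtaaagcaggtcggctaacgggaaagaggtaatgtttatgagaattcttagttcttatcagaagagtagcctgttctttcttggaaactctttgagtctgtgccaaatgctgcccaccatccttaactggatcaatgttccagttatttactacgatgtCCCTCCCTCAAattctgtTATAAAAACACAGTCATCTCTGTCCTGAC
Reg3g: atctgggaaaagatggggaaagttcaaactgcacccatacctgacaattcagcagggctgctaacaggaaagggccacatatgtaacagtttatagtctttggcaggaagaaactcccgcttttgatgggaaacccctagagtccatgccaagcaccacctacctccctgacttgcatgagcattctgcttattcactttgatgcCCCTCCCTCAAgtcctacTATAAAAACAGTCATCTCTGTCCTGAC
The first stretch is chr6:78370635-78370884 on the plus strand and the second chr6:78468875-78469124 on the minus strand. In Reg3b 40 of the 250 bases lay in shared runs, and the longest single run was of 20 bases. The Reg3b promoter also holds a match to TTCNNNGAA, the letters of a STAT site, at -129 to -121, in lower case, and Reg3g holds none. On either strand, 7.02% of 32851 promoters of this length hold these letters.

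Gp2, a glycoprotein of pancreatic zymogen granules and of the intestinal M cells that sample microbes, was high in every ICC. It was at 8.21, 8.91, 8.10, 8.11 and 8.82 in mice 3731, 3733, 3976, 3977 and 5283. The HCC were at -4.80, -3.01, -2.98, -4.26 and -2.14 in mice 3976, 5283, 3731, 3733 and 3975, with 3 arrays well above background. The difference was 11.87 ± 0.45 (adjusted p = 3.37e-07), and another Gp2 probe, well above background on 5 ICC and 1 HCC, was also called higher. Umod, the gene of uromodulin, a related protein that the kidney secretes, has its start site 20 kb from that of Gp2 and was at least 364-fold higher in ICC, at 2.60 to 5.92 on all 5 arrays and not well above background in any HCC. Pdilt and Acsm5, 64.2 and 67.0 kb from Gp2, did not pass the test, with differences of -0.36 ± 0.35 and -1.26 ± 0.59. They too were looked up after the values were seen.

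The pancreatic acinar markers did not follow Gp2 and Reg1. Of 24 markers on the array 13 were tested and 2 were called higher, which were Gp2 and Reg1 themselves. Another 3 were lower (5 with the arrays scaled on their medians), and the median was -0.56. Over all genes 12.4% were higher and 15.5% lower, with a median of -0.19, so the share higher was near that of all genes. Prss2, which codes for trypsinogen, and Ptf1a, the acinar transcription factor, were not well above background on any array of either group, and Cpa1, carboxypeptidase A1, was so on 1 HCC and 0 ICC. Cela1, an elastase, fell from 1.85 to 2.72 in HCC to -4.52 to -1.64 in ICC, a difference of -4.93 ± 0.47. Among 13 tested gastric and intestinal epithelium markers 4 were higher, Reg3b, Reg3g, Cdh17 and Muc13, and 2 were lower, the latter a share near that of all genes. Cdx2, Muc2 and Gkn1 were not well above background on any array. Tff3, a trefoil factor of mucous cells, was lower by 4.70 ± 1.31 (adjusted p = 0.0145), but its ICC, at -1.20 to 2.58, overlapped the HCC, at 1.28 to 7.99. Within the lower row Tff3 differed by -1.55 and was not called. Muc13, a membrane mucin, was higher by 3.40 with all arrays but by 1.84 without the lower-row HCC, where it was not called (adjusted p = 0.0979), nor was it called without the HCC of mouse 5283 or 3733 or the ICC of mouse 5283.

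Other genes well above background in every ICC and in no HCC were Dmbt1, a mucosal scavenger receptor, at least 994-fold higher, and Chst4, a sulfotransferase, at least 177-fold. Amph, which shapes membranes in endocytosis, was at least 169-fold higher, Cldn13, a claudin, at least 99.7-fold, Epcam at least 94.0-fold and Lrrc26, a subunit of potassium channels, at least 83.2-fold. In all, 52 of the 1999 higher genes were well above background on all 5 ICC and no HCC. Among genes measured on all 10 arrays whose groups did not overlap, the largest rise was that of Spib, an Ets factor of B cells and M cells, at 5.82 to 7.06 in ICC and -3.03 to -1.41 in HCC (8.27 ± 0.35). It was followed by Il4i1, an amino acid oxidase (7.28 ± 0.49), Wfdc18 (6.78 ± 0.60), Fxyd3, a regulator of the sodium pump (6.42 ± 0.36), and Tesc, a calcium-binding protein (5.72 ± 0.33). Cr2, complement receptor 2 of B and follicular dendritic cells, was higher by 5.50 ± 0.61, Ltbp2, a matrix protein, by 5.23 ± 0.43, Serpinb1a, an inhibitor of neutrophil proteases, by 5.20 ± 0.87 and Pdpn, podoplanin, by 5.07 ± 0.57. For each of these genes the groups did not overlap, which 28.6% of all probes tested also showed. The genes were chosen by this or by signal above background in ICC alone. The ICC thus exceeded the HCC in each of the 4 mice with both tumors, which is no separate support.

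**Figure D1:**
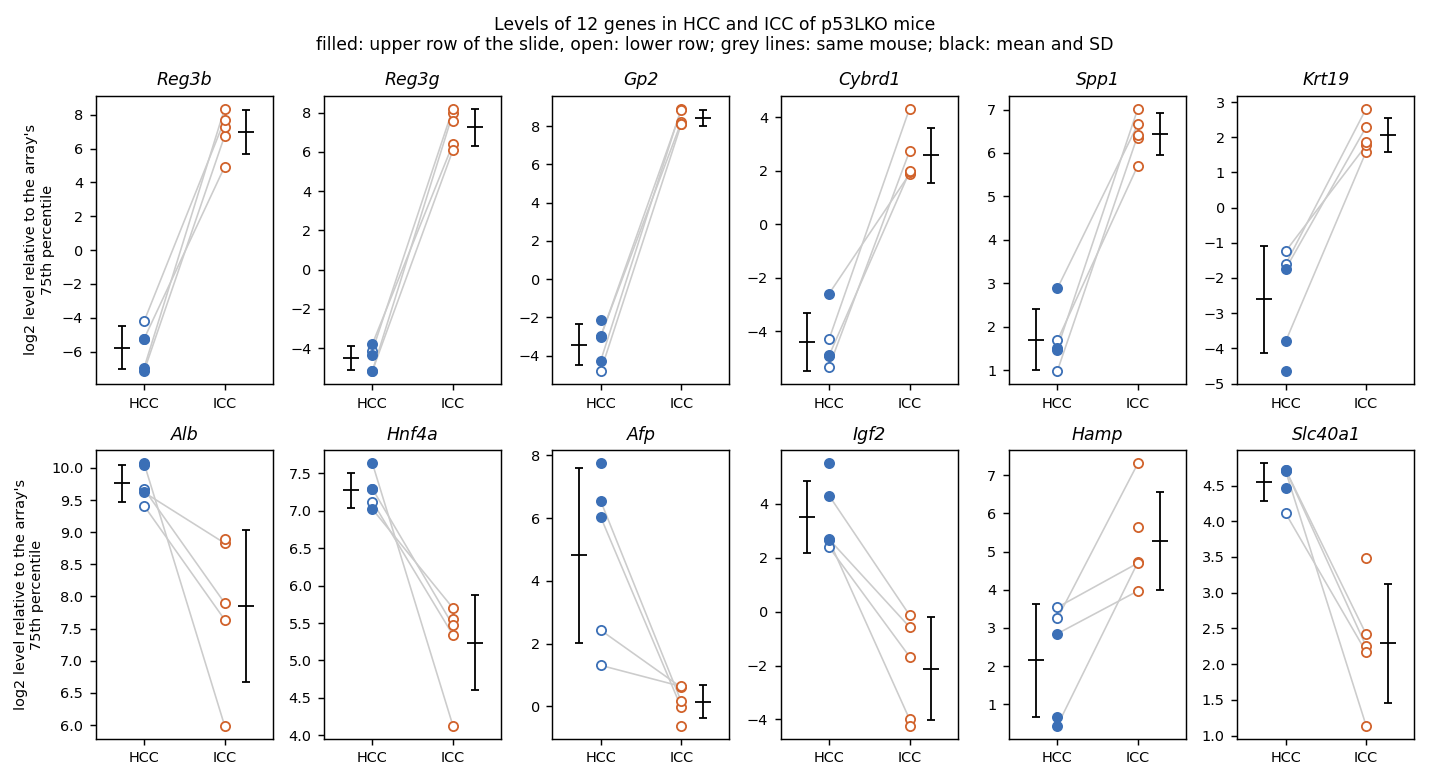
Log2 level, relative to the 75th percentile of the array, of 12 genes on the 5 HCC and 5 ICC arrays of p53LKO mice. Points are tumors (filled in the upper, open in the lower row of a slide), grey lines join the tumors of 1 mouse, and bars are the mean and SD; Reg3b, Reg3g, Gp2, Cybrd1, Spp1, Krt19 and Hamp lie higher and Alb, Hnf4a, Afp, Igf2 and Slc40a1 lower in every ICC than in every HCC.

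The label ICC was checked against bile duct genes, beside 12.4% of all genes higher and 15.5% lower. The share of biliary markers higher was larger than that of all genes, and the share lower was near it. Spp1 was at 6.66, 7.02, 5.71, 6.34 and 6.41 in the ICC of mice 3731, 3733, 3976, 3977 and 5283, and at 0.98 to 2.88 in HCC, a rise of 4.73 ± 0.35 (26.5-fold, adjusted p = 1.28e-05). Krt19 rose from -4.64 to -1.24 in HCC to 1.59 to 2.81 in ICC (4.67 ± 0.62). Krt7, another duct keratin, was higher by 2.70 ± 0.68 and well above background on 4 ICC and 1 HCC, but the ICC of mouse 5283 stayed at -3.68, and within the lower row it was not called (1.75, adjusted p = 0.134). Among 18 tested biliary markers 6 were higher, the others being Epcam, Ehf and Cd24a, and 3 were lower, Krt23, Cldn7 and Prom1. The call of Prom1 (-1.26) was lost in 19 of the 32 other settings tried, among them the lower row (-0.83), slide 1 (-0.11) and the omission of 1 array for 7 of the 10. Their median was 0.21, and -0.14 with the arrays scaled on their medians. Sox9, the transcription factor of duct and progenitor cells, was at 0.81 to 1.92 in ICC and 0.56 to 1.89 in HCC, with a difference of 0.30 ± 0.29 (adjusted p = 0.421). Of 10 biliary and progenitor transcription factors, Klf5 (5.18 ± 0.50), Ehf (3.01 ± 0.60) and Grhl2, which drive epithelial programs, were higher, the last well above background on 4 ICC and no HCC, and Elf3 was lower by 1.23. The groups overlapped for Ehf, by the HCC of mouse 3731, and for Grhl2, by the ICC of mouse 5283. Within the lower row Grhl2 was not called (adjusted p = 0.125), and Elf3 was not without the lower-row HCC or with the arrays scaled on the probes above background on all of them.

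Other epithelial genes were called in both directions, beside 12.4% of all genes higher and 15.5% lower. The shares of keratins and of S100 and annexin genes lower, and of tight junction genes higher, were near these. Of 11 tested keratins 4 were higher and 2 lower. Krt14, a keratin of basal epithelium, was higher by 3.64 ± 0.45, and Krt5, with which it usually pairs, was lower by 4.05 ± 0.55, at 0.19 to 3.44 in HCC and -3.05 to -2.15 in ICC. Krt8 and Krt18, which hepatocytes and duct cells share, were not called, at -0.52 ± 0.22 and -0.54 ± 0.16. Of 20 tested tight junction genes 7 were lower, among them Cldn1 (-3.10), Cldn14 (-2.47), Cldn3 (-1.55) and Ocln (-1.52), and 2 were higher, Marveld3 (3.73) and Cldn2 (1.46, not called within the lower row). The list did not hold Cldn13, the claudin given above as higher. In the S100 and annexin families, which bind calcium, 8 of 21 were higher and 3 lower, or 10 and 1 with the scale on the probes above background on all arrays, with Anxa8 at 6.36 ± 0.50 and S100b at 5.08 ± 0.77. Itgb4, the integrin of hemidesmosomes, was higher by 4.84 ± 0.37. Lamc3, a laminin chain, was well above background on all 5 HCC and no ICC and was at least 52.2-fold lower.

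Many hepatocyte genes were lower in ICC, and the markers stayed above background. All 20 hepatocyte markers were well above background on all 10 arrays, and 10 were called lower and none higher, with a median of -1.35. Over all genes 15.5% were lower and 12.4% higher, with a median of -0.19. The lower markers numbered 6 with the arrays scaled on the probes above background on all of them, 13 with the medians as scale and 1 within the lower row. Alb was at 9.41 to 10.07 in HCC. In ICC it was at 8.83, 5.99, 7.90, 8.89 and 7.64 in mice 3731, 3733, 3976, 3977 and 5283, so that the ICC spanned more than the step between the groups, and the difference was -1.91 ± 0.48 (adjusted p = 0.0086). Hnf4a, the central hepatocyte transcription factor, was lower by 2.03 ± 0.28, at 4.13 to 5.70 in ICC and 7.02 to 7.63 in HCC. Cps1, the first enzyme of the urea cycle, differed by -1.66 ± 0.73 and did not pass the test (adjusted p = 0.0854). Whether the hepatocyte genes of ICC came from tumor cells or from adjacent liver was not tested.

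Falls were seen across most lists of liver metabolism and its regulators, beside 12.4% of all genes higher and 15.5% lower. Of 15 tested hepatocyte transcription factors 11 were lower and 1, Foxa1, was higher by 1.02 ± 0.30, a call that was not made with the arrays scaled on their medians, within the lower row, without the HCC of mouse 5283 or 3975, or without the ICC of mouse 3731, 3733 or 3976. Nr1i2, the pregnane X receptor, was lower by 3.07 ± 0.42 and Ppara, the sensor of fatty acids, by 2.48 ± 0.47. Of 13 genes of gluconeogenesis and glycogen 11 were lower and none higher, with a median of -2.19. Khk, the fructose kinase, was lower by 3.55 ± 0.44 and Gys2, liver glycogen synthase, by 3.34 ± 0.54. Of 19 genes of lipoprotein assembly and clearance 15 were lower, or 10 with the arrays scaled on the probes above background on all of them, with Apoa4 at -4.80 ± 0.69 and Apom at -4.24. Of 19 genes of fatty acid oxidation and ketogenesis 16 were lower, or 7 on that scale, with a median of -1.33, and of 24 coagulation and fibrinolysis genes 16 were lower, with a median of -1.92. The 2 higher genes of that list were Plau (1.72) and Plaur (1.58), urokinase and its receptor, which act outside hepatocytes too. Plau was not called without the lower-row HCC (1.43, adjusted p = 0.0512), and the fibrinogen chains Fga, Fgb and Fgg did not pass the test. Complement had 11 of 19 lower, cytochrome P450 of families 1 to 4 had 11 of 24, amino acid catabolism 14 of 25 (8 on that scale), urea cycle 5 of 8, and bile acid and organic anion transport 9 of 13. None of these lists held a higher gene. Within the lower row the lower genes numbered 6 in coagulation, lipoprotein and amino acid catabolism alike, 7 in gluconeogenesis, 12 in fatty acid oxidation, 8 in complement, 5 in cytochrome P450, 5 in transport and 1 in the urea cycle, and on slide 1 at most 2 in any of these lists. Amino acid catabolism had 7 without the lower-row HCC, 9 without the ICC of mouse 3733 and 9 without the HCC of mouse 3731. The urea cycle had 3 without the lower-row HCC and 3 with the scale on the probes above background on all arrays. With the medians as scale cytochrome P450 had 18. Cyp2e1, Cyp7a1 and Pck1 had differences above 0, at 1.94, 1.70 and 0.73, and did not pass the test. The pericentral hepatocyte genes, those of hepatocytes around the central vein, did not follow the falls. Of 10 tested 2 were higher and 1 lower, with a median of 0.88. Without the lower-row HCC 5 were higher and 1 lower, and within the lower row none was called, with a median of -0.1.

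Among genes measured on all 10 arrays whose groups did not overlap, the largest falls were those of Mogat2, an enzyme of triglyceride synthesis (-5.12 ± 0.34), Apoa4, Cyp2f2 (-4.68 ± 0.84), Spp2 (-4.68 ± 0.57), Afp, Aldh1b1, a mitochondrial aldehyde dehydrogenase (-4.61 ± 0.51), and Tiam2, a Rac exchange factor (-4.60 ± 0.24). Cbr3, Gldc, the glycine decarboxylase, and Abcc4, an efflux pump, followed at -4.48 ± 0.34, -4.46 ± 0.54 and -4.43 ± 0.49. Genes well above background on all 5 HCC and no ICC numbered 79. Erich4 was at least 64.3-fold lower, and Apela, the ligand of the apelin receptor in embryos, at least 44.3-fold, at 1.72 to 3.84 in HCC and -4.89 to -3.60 in ICC. The bounds of Abcc12, Cyp1a1, Wfdc16, Sult4a1 and Cdcp2 ran from at least 9.52-fold for Cdcp2 to at least 22.0-fold for Abcc12. Cyp1a1 spread from -1.26 to 4.04 among the HCC and was highest in mouse 3975.

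Some fetal liver genes were high in HCC and low in ICC. Of 8 tested oncofetal genes 4 were lower and none higher, with a median of -2.84, beside 15.5% of all genes lower and 12.4% higher. Igf2, a fetal growth factor, was at 2.68, 2.39, 4.30, 2.64 and 5.49 in the HCC of mice 3976, 5283, 3731, 3733 and 3975, and at -4.23 to -0.13 in ICC, of which 3 arrays were well above background. The difference was -5.61 ± 0.90 (adjusted p = 0.000815). Afp was at 6.03, 6.54 and 7.74 in the upper-row HCC of mice 3731, 3733 and 3975 but at 2.43 and 1.31 in the lower-row HCC of mice 3976 and 5283, and at -0.61 to 0.64 in ICC. Its difference of -4.66 ± 1.09 was -6.62 without those 2 HCC and -1.72 within the lower row, and it was called in both. Dlk1 was lower by 4.65 ± 1.15, but by 2.90 and without a call within the lower row, Igf2bp3 was lower by 2.68 ± 0.28, and Gpc3 and H19 were not called.

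**Figure D2:**
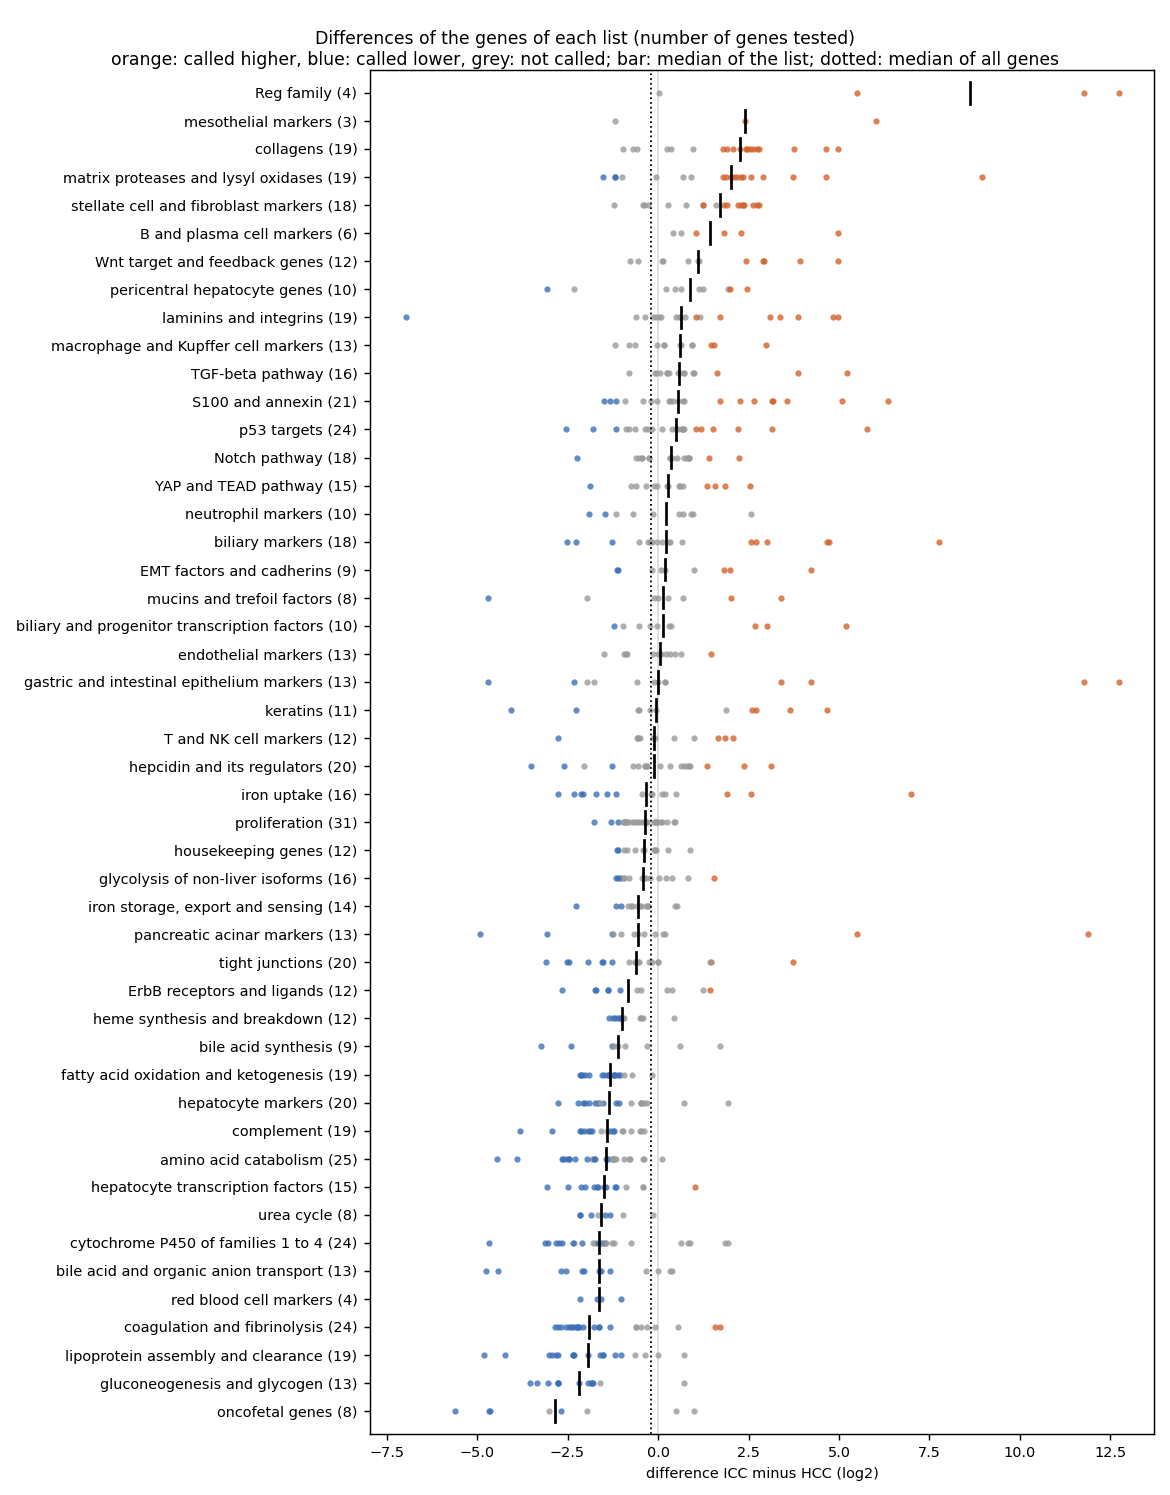
Differences ICC minus HCC on the log2 scale of every tested gene of 48 gene lists, ordered by the list's median (black bar). Orange genes were called higher, blue genes called lower and grey genes not called, and the dotted line is the median of all genes, -0.19; coagulation and lipoprotein genes have medians of -1.92 and -1.94, and collagens and matrix proteases 2.27 and 2.02.

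Genes of fibrous stroma were higher in ICC, and their counts stand beside 12.4% of all genes higher and 15.5% lower. Of 19 tested collagens 13 were called higher and none lower, with a median of 2.27. Col1a1, the main fibrillar collagen, was at 6.15, 6.45, 6.93, 5.97 and 6.93 in the ICC of mice 3731, 3733, 3976, 3977 and 5283. In HCC it was at 3.08 to 3.83 except for 5.53 in mouse 3731, and the rise was 2.63 ± 0.43 (adjusted p = 0.000916). Col8a1 was higher by 4.96 ± 0.75 and Col5a2 by 3.75. Col10a1 was also called higher and was well above background on 3 ICC and no HCC. Col4a1, Col4a2 and Col18a1, of basement membranes, were not called, at 0.24, 0.96 and -0.97. Of 18 tested stellate cell and fibroblast markers 10 were higher and none lower, and their mean level was 3.01 to 3.87 in ICC against 1.55 to 3.13 in HCC. This list also holds Timp1, named again below, and the collagens Col1a1, Col1a2 and Col3a1. Its count is thus not independent of that of the collagens. Acta2 and Des, which mark contractile cells, did not pass the test.

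Enzymes that cut or cross-link matrix were largely higher, beside 12.4% of all genes higher and 15.5% lower. Of 19 tested matrix proteases and lysyl oxidases 12 were higher and 3 lower, with a median of 2.02, and 14 and 1 with the scale on the probes above background on all arrays. Mmp7, matrilysin, a protease made by epithelium rather than by fibroblasts, led them at 5.90 to 6.85 in ICC and -4.37 to 0.28 in HCC (8.94 ± 0.70, adjusted p = 1.77e-05). Lox, which cross-links collagen, was higher by 4.64 ± 0.54, Mmp3 by 3.73, Mmp2 by 2.91 and Timp1, an inhibitor, by 2.34. The promoter of Mmp7 is shown because of this rise. Capitals mark the match to TGANTCA, the letters of an AP-1 site, at -63 to -57, which 6.75% of the promoters hold on either strand.
Mmp7: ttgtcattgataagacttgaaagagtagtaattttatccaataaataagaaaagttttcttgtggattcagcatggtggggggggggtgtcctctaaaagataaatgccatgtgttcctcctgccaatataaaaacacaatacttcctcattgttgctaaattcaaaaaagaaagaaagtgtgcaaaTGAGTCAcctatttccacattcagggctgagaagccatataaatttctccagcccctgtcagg
The stretch is chr9:7691840-7692089 on the plus strand of GRCm38.p6.

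Of all genes 12.4% were higher and 15.5% lower, and the counts of the signaling lists stand beside these shares. The share higher in the Notch list was near that of all genes. Of 16 genes of the TGF-beta pathway 3 were higher (7 with the scale on the probes above background on all arrays, and 5 without the lower-row HCC or without the HCC of mouse 3731) and none lower, namely Ltbp2, Tgfb3 and Thbs1, an activator of the latent ligand, at 3.88 ± 0.38. Of 15 tested genes of the YAP and TEAD pathway 4 were higher, Ccn2 (2.53 ± 0.43), Ankrd1, Tead2 and Ccn1, and 1 was lower. Ccn1 was not called within the lower row (0.94, adjusted p = 0.056). Of 18 Notch pathway genes Jag1, a ligand of the bile duct program, was higher by 2.25 ± 0.44 and Heyl by 1.41 (not called within the lower row), Dll4 was lower by 2.24, and the receptors Notch1 to Notch4 did not pass the test. With the scale on the probes above background on all arrays 7 Notch pathway genes were higher and 1 lower. Of 12 Wnt target and feedback genes 5 were higher and none lower. They were the secreted inhibitors Sfrp1 (4.98 ± 0.38) and Wif1 (3.92 ± 0.80), and Sp5, Lgr5 and Tcf7. Within the lower row Sp5 (1.55, adjusted p = 0.194) and Lgr5 (1.93, adjusted p = 0.136) were not called, and the call of Lgr5 was lost without the ICC of mouse 3731, 3976 or 3977. Axin2 and Notum were not called with all arrays, at 1.12 and -0.77. Of 12 tested ErbB genes 6 were lower, the ligands Nrg4, Btc, Areg, Tgfa and Nrg1 and the feedback inhibitor Errfi1, and Erbb2, a receptor, was higher by 1.43 ± 0.34. Nrg4 differed by -2.66 ± 0.43, and its other probes by -2.11 and 0.74.

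Markers of other cells in the tumors moved in part with the groups, and the counts below stand beside 12.4% of all genes higher and 15.5% lower. Of 6 tested B and plasma cell markers 4 were higher, with mean levels of -1.33 to 1.04 in ICC and -2.71 to -1.36 in HCC. Jchain, the joining chain of secreted antibodies, ranged from 0.42 to 6.34 in ICC, a difference of 4.97 ± 1.14. Cd79a and Cd79b, which define B cells, did not pass, and within the lower row none of the 6 was called. Lyz2 was higher by 2.99 ± 0.34 among 3 of 13 macrophage and Kupffer cell markers, which became 5 without the HCC of mouse 3731 and 6 with the scale on the probes above background on all arrays, while slide 1 had none higher and 3 lower, and Clec4f and Marco did not pass. Msln, mesothelin, was higher by 6.01 ± 0.99, at 3.16 to 5.35 in ICC, and with Wt1, whose call was lost without the lower-row HCC and without the ICC of mouse 3731 or 3976, made 2 of 3 tested mesothelial markers. The red blood cell markers, 4 tested of 8, were all lower, with Hba-a1 down by 1.68 ± 0.33, and their mean level was 0.10 to 1.00 in ICC and 1.41 to 2.62 in HCC. Of 13 tested endothelial markers 1 was higher and none lower, of 12 T and NK cell markers 3 were higher and 1 lower, and of 10 neutrophil markers none was higher and 2 were lower, or 2 and 2 with the scale on the probes above background on all arrays. Of 31 tested proliferation genes none was higher and 3 were lower, or 11 with the arrays scaled on their medians, and Mki67 differed by 0.43 ± 0.33 (adjusted p = 0.306). The part of each cell type in the differences of other genes was not tested.

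**Figure D3:**
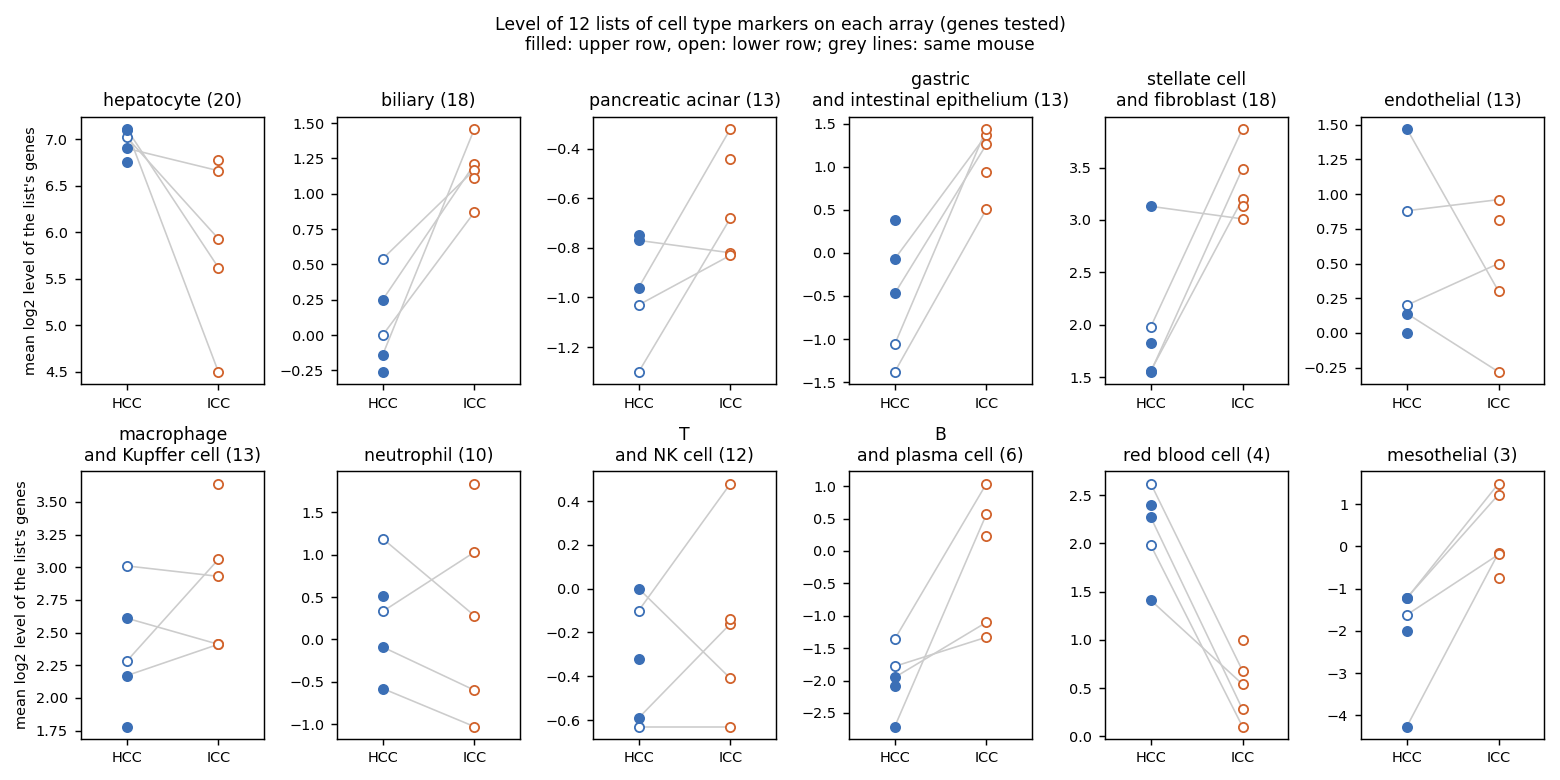
Mean log2 level of the tested genes of 12 lists of cell type markers on each of the 10 arrays, with filled points for the upper and open points for the lower row of a slide and grey lines between tumors of 1 mouse. The hepatocyte list spans 4.50 to 6.78 in ICC and 6.75 to 7.11 in HCC, the stellate cell and fibroblast list is at 3.13 in the HCC of mouse 3731, and the red blood cell list is at 0.10 to 1.00 in ICC and 1.41 to 2.62 in HCC.

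Targets of p53 code for cell cycle inhibitors and inducers of cell death, among other proteins. Of 24 tested 6 were higher and 3 lower, beside 12.4% and 15.5% of all genes, so the share of lower genes was near that of all genes. The median was 0.50, but 3 were higher and 5 lower with the arrays scaled on their medians, and 10 higher and 2 lower with the scale on the probes above background on all arrays. Dram1, an inducer of autophagy, was at 1.08 to 2.88 in ICC and -5.13 to -2.62 in HCC (5.78 ± 0.47). Pmaip1, which codes for the pro-apoptotic Noxa, was higher by 3.14 ± 0.46, and Phlda3, Perp, Zmat3 and Trp53inp1 by 2.21, 1.53, 1.19 and 1.06. Perp was not called within the lower row, with the medians as scale, or without the HCC of mouse 5283 or 3733 or the ICC of mouse 3731. Cdkn1a, the cell cycle inhibitor p21, was lower by 1.79 ± 0.34, at -0.85 to 0.33 in ICC and 1.00 to 2.48 in HCC, and another Cdkn1a probe, well above background on 3 HCC and no ICC, was not called. Gdf15 was lower by 2.54 ± 0.43. Mdm2 and Bax were under the 2-fold limit, at 0.67 ± 0.16 and 0.68 ± 0.15.

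Of 16 tested iron uptake genes 3 were higher and 7 lower, beside 12.4% and 15.5% of all genes. Cybrd1, the duodenal ferric reductase that prepares iron for uptake from the gut, was at 1.88, 1.96, 2.73, 2.01 and 4.32 in the ICC of mice 3731, 3733, 3976, 3977 and 5283. It was at -5.32, -4.29, -2.59, -4.90 and -4.89 in the HCC of mice 3976, 5283, 3731, 3733 and 3975, of which 1 array was well above background, and at -6.83 to -5.32 in HCC of p53f/f mice. The difference was 6.98 ± 0.58 (adjusted p = 2.59e-05 from limma), and another probe, above background on the same numbers of arrays, was also called higher. Both probes passed the filter through the ICC alone, so their calls are no separate support. Steap1, a metalloreductase, and Scara5, a ferritin receptor, were higher by 2.58 ± 0.80 and 1.90 ± 0.57, and their groups overlapped. Neither was called within the lower row (2.33, adjusted p = 0.137, and 1.31, adjusted p = 0.0762), and Steap1 was not called without the HCC of mouse 5283 or 3733 or the ICC of mouse 3733. Tfr2, the iron sensor of hepatocytes, was lower by 2.12 ± 0.26, Lcn2, which binds bacterial siderophores, by 2.76 ± 0.28, and Tfrc, the transferrin receptor, by 1.16 ± 0.31 (adjusted p = 0.0124), with an ICC range of -0.96 to 0.66 that overlapped the HCC range of 0.60 to 1.47. By this probe Tfrc was not called with the scale on the probes above background on all arrays (-0.80, adjusted p = 0.0761), within the lower row (-0.93, adjusted p = 0.154), on slide 1 (-0.05) or without the ICC of mouse 3976. Another Tfrc probe, well above background on all 10 arrays, differed by -1.76 ± 0.24 (adjusted p = 0.00031), and the third was called lower and was above background on 4 HCC and no ICC. The metal transporters Slc11a2, Slc39a14 and Slc39a8 did not pass the test.

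Hamp, the gene of hepcidin, the hormone that closes the iron exporter ferroportin, was higher in ICC. It was at 3.97, 4.72, 4.70, 5.65 and 7.31 in mice 3731, 3733, 3976, 3977 and 5283, against 3.54, 3.25, 2.85, 0.44 and 0.67 in the HCC of mice 3976, 5283, 3731, 3733 and 3975. The groups did not overlap and the difference was 3.12 ± 0.76 (8.71-fold, adjusted p = 0.00755). Without the lower-row HCC it was 3.95, and within the lower row it was 1.88 and was not called (adjusted p = 0.125). Hamp2, a close copy of Hamp whose transcript could bind to the same probe, differed by -2.05 ± 0.85 and was not called. Slc40a1, ferroportin itself, was lower by 2.26 ± 0.35, at 1.14 to 3.48 in ICC and 4.11 to 4.72 in HCC. Tmprss6, a protease that restrains hepcidin, was lower by 3.50 ± 0.44, and Hjv, the co-receptor that promotes it, by 2.59 ± 0.70, although Hjv was not called within the lower row (-2.50, adjusted p = 0.129). Of the ligands upstream, Bmp2 was higher by 2.37 ± 0.48 and Bmp6 was called lower and was well above background on 4 HCC and no ICC. The call of Bmp6 was lost in 19 of the 30 other settings, among them the set without the lower-row HCC (adjusted p = 0.17) and the omission of 1 array for 6 of the 10. Id1, a BMP target, was higher by 1.34, but by 1.19 within the lower row (adjusted p = 0.164) and 0.14 on slide 1, and was called in neither, nor without the ICC of mouse 5283. Smad7, Il6 and Stat3 were not called, at 0.71, 0.85 and 0.06. In all, 3 of 20 tested genes of the list hepcidin and its regulators were higher and 3 lower, 7 and 2 with the arrays scaled on the probes above background on all of them, and 2 and 5 with the arrays scaled on their medians. With all arrays these shares were close to those of all genes, 12.4% higher and 15.5% lower.

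The promoter of Hamp is shown because BMP and STAT3 signals are known to act on it. Capitals mark GGCGCC, the core of a BMP-responsive element, at -109 to -104, the match to TTCNNNGAA at -97 to -89, and the match to TGANTCA at -87 to -81. In that order 9.59%, 7.02% and 6.75% of the promoters hold these letters.
Hamp: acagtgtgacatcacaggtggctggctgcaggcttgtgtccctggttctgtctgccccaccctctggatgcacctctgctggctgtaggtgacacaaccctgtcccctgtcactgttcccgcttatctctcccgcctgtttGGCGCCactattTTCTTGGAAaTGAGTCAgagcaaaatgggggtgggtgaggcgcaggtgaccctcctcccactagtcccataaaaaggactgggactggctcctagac
The stretch is chr7:30944030-30944279 on the minus strand of GRCm38.p6.

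The counts of this paragraph stand beside 12.4% of all genes higher and 15.5% lower. Among 14 tested genes of iron storage, export and sensing none was higher and 3 were lower, a share not far from that of all genes. They were Slc40a1, Trf (-1.17 ± 0.29) and Hpx. The lower genes numbered 1 with the scale on the probes above background on all arrays, within the lower row and without the ICC of mouse 3733, and 6 with that on the medians, and the call of Hpx (-1.03) was lost in 20 of the 32 other settings, among them slide 1 (-0.02) and the omission of 1 array for 7 of the 10. Trf was not called within the lower row (-1.12, adjusted p = 0.109) or without the ICC of mouse 3733 (-0.92), and another Trf probe differed by -0.67 and was not called. Fth1, ferritin heavy chain, was lower by 0.82 ± 0.15 (adjusted p = 0.00163), at 8.26 to 8.39 in ICC and 8.89 to 9.37 in HCC, a 1.76-fold step that did not reach the limit of a 2-fold change. Of 12 genes of heme synthesis and breakdown 6 were lower and none higher, with a median of -0.99, but none was called with the scale on the probes above background on all arrays, where the median was -0.63, and 3 were without the ICC of mouse 3733. Fech, which inserts the iron, was lower by 1.35 ± 0.19. The hepatocyte and red blood cell markers, of which 10 of 20 and 4 of 4 tested were lower, moved with these falls, and their part in them was not tested.

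**Figure D4:**
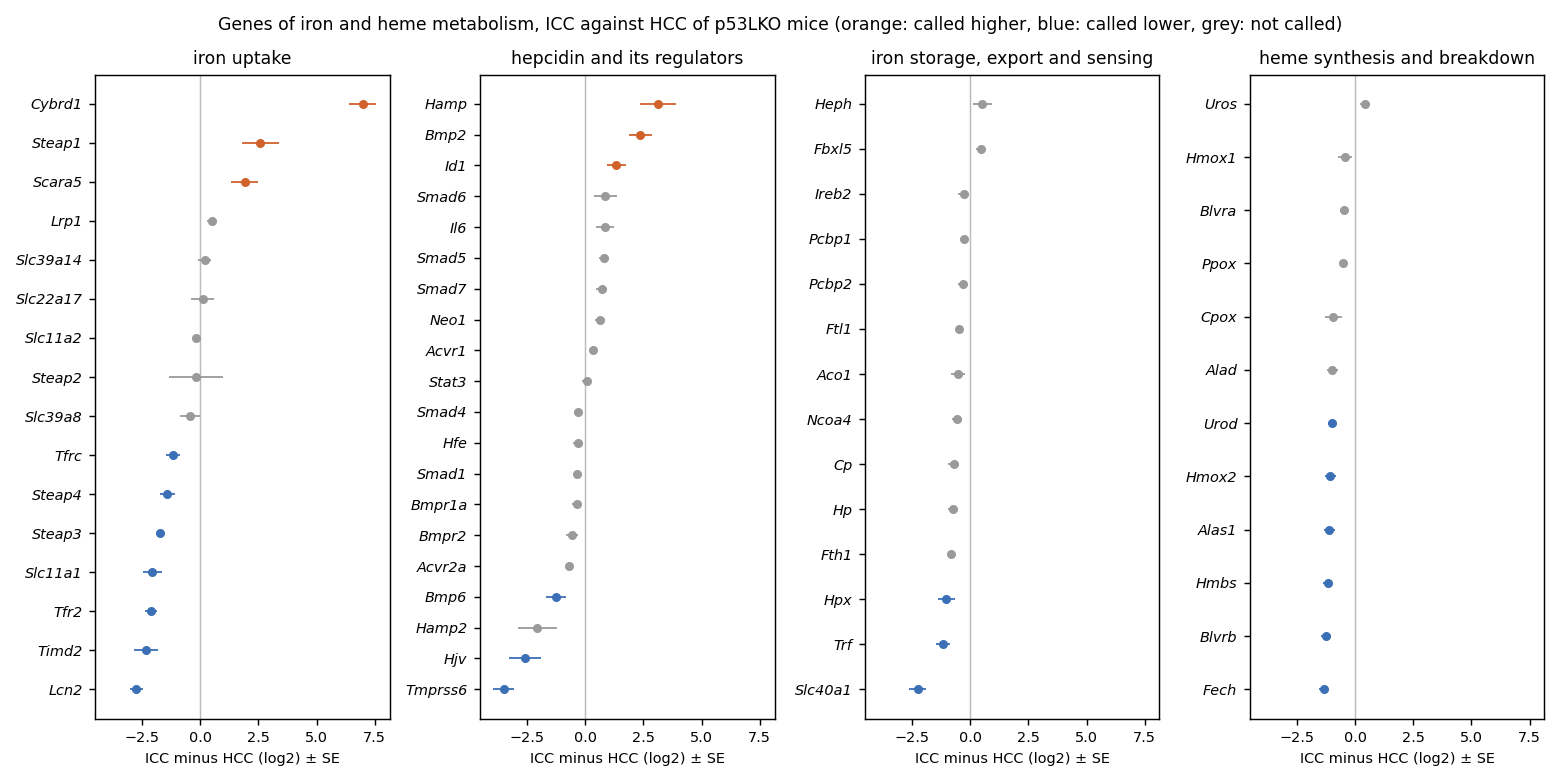
Difference ICC minus HCC on the log2 scale, with its standard error, of the tested genes of 4 lists of iron and heme metabolism in p53LKO mice (n = 5 and 5). Cybrd1, Steap1, Scara5, Hamp, Bmp2 and Id1 (orange) were called higher, blue genes were called lower, and grey genes were not called. Bmp6 was not well above background on any ICC, and Cybrd1 was on 1 HCC, so their points depend on values at background.

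The differences depended on the arrays compared. Reg3b, Reg3g, Gp2, Cybrd1 and Spp1 were called within the lower row (2 HCC and 5 ICC) and on slide 1, where 2 HCC and 1 ICC lay in the same row and the single ICC is assumed to vary like the HCC. Spp1 differed by 5.10 and 5.33 in these sets, and the other 4 genes were not well above background on either lower-row HCC. Col1a1 was at 3.03 within the lower row and 2.69 on slide 1, and Slc40a1 at -2.13 and -2.17, each called within the row and not on the slide. Alb was at -1.69 and -0.72 and was called in neither. The hepatocyte markers called lower numbered 10 with all arrays, 1 within the lower row and 0 on slide 1, with medians of -1.19 and -0.34 in these sets. Collagens had 13 higher and 1 lower gene within the lower row and 3 higher on slide 1, with medians of 2.45 and 1.66.

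**Figure D5:**
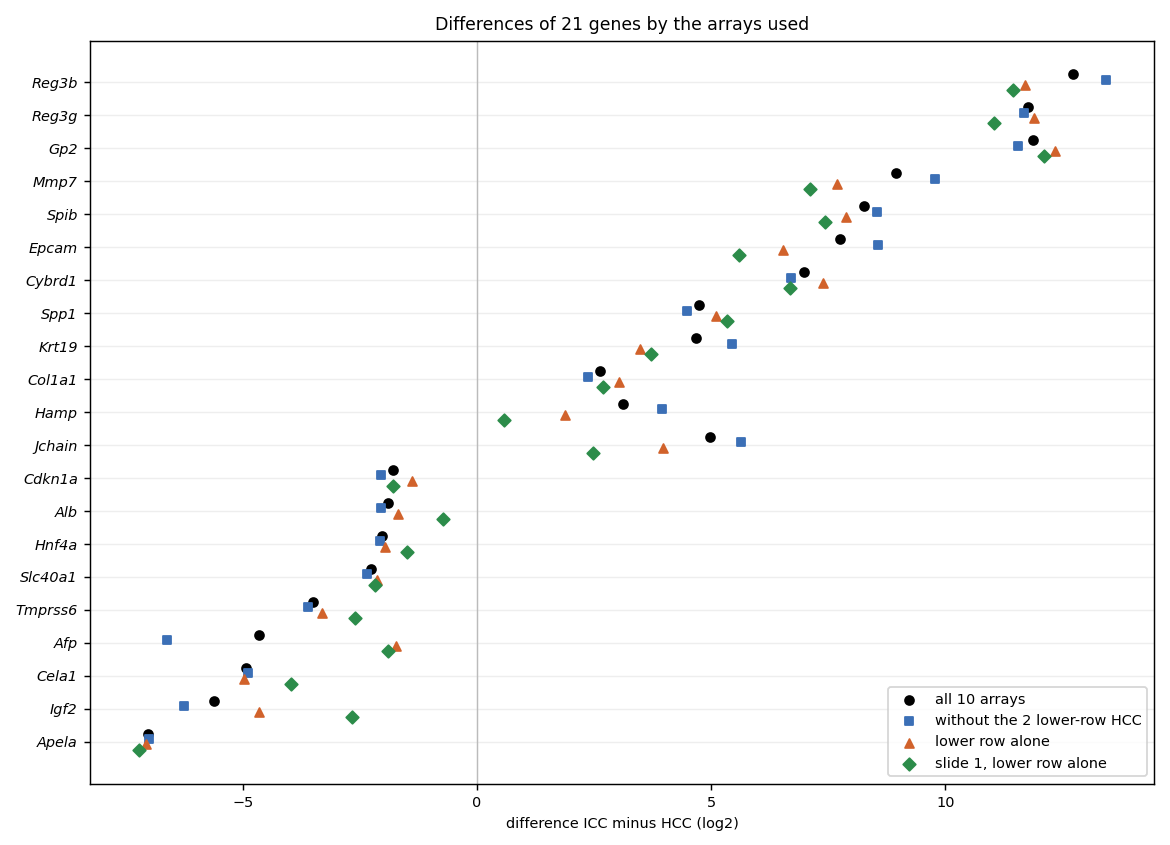
Difference ICC minus HCC on the log2 scale of 21 genes with all 10 arrays (black circles), without the 2 HCC of the lower row (blue squares), within the lower row (orange triangles) and on slide 1, lower row (green diamonds, 2 HCC and 1 ICC). Reg3b and Epcam were not well above background on any HCC, Reg3g, Gp2 and Cybrd1 on either lower-row HCC, and Apela on any ICC. Igf2 was well above background on only some of the ICC. The sizes of the differences of these genes thus depend on values at background. Every gene keeps its direction in the 4 sets, with Hamp between 0.57 and 3.95 and Afp between -6.62 and -1.72.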

How the data were processed

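RNA of whole tumor tissue was hybridised to 1-colour Agilent mouse arrays (Cy3), 1 tumor per array. The authors scanned the arrays and deposited Feature Extraction output, software version 10.7.3.1 per the file headers, whose processed intensity is background-subtracted and detrended, with probe positions on mm9. The deposited log2 values of the whole series were not used, since their HCC and ICC columns are centred on different arrays. From the deposited intensity, log2 values were taken here, minus each array's 75th percentile. Control and outlier spots were left out and spots of a probe averaged. A probe was tested (32644 of 55681) if either group had 3 or more arrays with it well above background. The test was that of limma 3.58.1 in R 4.3.3, with p-values adjusted by Benjamini-Hochberg. A gene was represented by 1 probe. Symbols were matched to RefSeq by accession for 28331 probes, by symbol for 2209 and by synonym for 174. The number of arrays limits the precision. In simulated data, 101 of 32644 probes were changed by 2 on the log2 scale and 99 by 3. The noise was normal and equal in both groups, without effects of row or slide. Of the 101 probes 82.2% were called. Far fewer probes were changed than were called here, so this share is not the power of the comparison.

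The mouse numbers in the labels pair 4 HCC with 4 ICC of the same animal. Deviations from the group means of tumors of the same mouse correlated at -0.143 to 0.066, and the consensus correlation was 0.044. Named genes were Cybrd1, Reg3b, Gp2 and Trp53, the 10 largest changes per direction among genes measured on all 10 arrays without overlap, the 8 largest bounds per direction, and up to 4 called members per direction of 48 gene lists with some well known members. Other list members were named after their values were seen. The groups and lists were chosen with earlier results of these data known. A bound of fold sets the mean of the bright group against the lowest signal well above background on each array of the dim group, or the probe's own signal where that is higher. Normalization, filters, blocks, arrays and tests were varied. Some items are not reported here.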

Additional observations from a re-analysis of the deposited data

Results flagged for a closer look

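Among 454 groups of 5 values of the named genes, 21 held a tumor whose value stood apart from the other 4 of its group, about the 1 in 20 that chance gives. In the ICC of mouse 3733, 8 genes with a role in liver stood below the others. Hnf4a was at 4.13 there against 5.34 to 5.70 in the other ICC, Khk at 2.35 against 4.45 to 4.85, Gys2 at -0.19 against 2.39 to 3.20 and Spp2 at -0.51 against 1.69 to 2.47. Apom was at 0.73 against 3.42 to 4.51, Proc, the gene of protein C, at 2.38 against 4.38 to 4.96, Hjv at -4.76 against -1.39 to -0.35 and Blvrb, a biliverdin reductase, at 3.33 against 3.95 to 4.15. The mean level of the hepatocyte markers in that tumor was 4.50, and the part of this in the 8 values was not tested.

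In the ICC of mouse 5283 the epithelial genes Krt7, Grhl2 and Cldn7 were at -3.68, -4.89 and 0.16, each below the other ICC. In the HCC of mouse 3731, in which the fibroblast markers were high, Col5a2 was at -1.38 against -3.91 to -3.30 and Ehf at 0.95 against -2.64 to -1.62, both above the other HCC. The HCC of mouse 5283 was low for Lamc3, at -0.65, and for Slc51b, at 1.14, and high for Cldn14, at 1.91. The HCC of mouse 3733 was low for Pdpn, at -3.96, and that of mouse 3975 for Wfdc16, at -1.45. The ICC of mouse 3731 was high for Wfdc16, at -2.71, and for Tiam2, at -1.05, and that of mouse 3976 was low for Itga2, at -1.68.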

How the results depend on the processing

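The limits were few arrays, an uneven spread of the groups over rows and slides, and dim probes, as 23037 of 55681 probes were not tested. Of 8608 called probes, the count was 5609 with normexp background correction, 4331 over probes above background on all arrays, 14754 at any fold and 4510 with 1 probe per gene symbol, of 16162 tested. It was 1176 on slide 1 alone and 462 with slide and row as blocks, an alternative added after the data were seen. Leaving out 1 array gave 7419 to 9406, the lowest without the ICC of mouse 3733. No setting called a probe in the opposite direction. With the mouse as a fixed replicate block, the pairing of tumors from 1 animal, 7253 probes were called, with the mouse as a random block 8653, and with the mouse and row together 296. Scaling on the medians called 3099 higher and 8193 lower, and on the probes above background on all arrays 6231 and 2256. The cause of these shifts was not tested.

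Of 219 named genes that were called, 22 stayed called in every setting, and in 6919 values 2 changed sign. On slide 1 alone 65 were called, within the lower row 161, and with mouse and row as blocks 31. Leaving out 1 array lost at most 16 calls, without the ICC of mouse 3733. Both changes of sign were those of Cyp4a12a, called lower by 3.05, which was at 0.09 on slide 1 alone and with slide and row as blocks. Of the genes not called, Sox9 was at -0.05 with the medians as scale, at -0.11 with row as a block and within the lower row alone, and at -0.03 with mouse and row as blocks. Trp53 was at -0.34 with quantile normalization, -0.33 with the medians as scale, -0.15 with slide as a block, -0.83 on slide 1 and with slide and row as blocks, -0.16 without the lower-row HCC, and between -0.17 and 0.3 without 1 array.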
